A study of Mus musculus with 13 samples.

Results

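Branched-chain amino acid and fatty acid oxidation is described here by 41 genes, chosen by symbol from the deposited count and TPM tables, which list 20270 genes. All 41 were listed and all 41 passed the filter on low counts that left 15315 genes for the tests. They encode the mitochondrial enzymes that break down leucine, valine and isoleucine, the enzymes of fatty acid oxidation that share their last steps, 2 peroxisomal enzymes, the ketone body enzymes Acat1 and Oxct1, and the electron transfer proteins that receive the electrons.

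RNA was measured in the lower right lung lobe in 13 libraries, taken as 1 per mouse, in 3 groups. The labels of WT bleomycin 4 and 4-B2 share a number and the meaning of B2 is not given. They are treated here as separate mice. The 4 control mice received sterile saline. The 5 wildtype (WT) mice were given bleomycin once into the oropharynx, at 1 U per kg, and were taken on day 14. The 4 CB1R KO mice, which lack Cnr1, the gene of the cannabinoid receptor CB1R, in all tissues, were given bleomycin in the same way and were taken on day 14 as well. The control and WT mice were C57BL/6J males of 13 weeks of age per the methods of the study, and the knockout was carried on the same background, with no age given for it. No group of CB1R KO mice given saline is analysed here, so the effect of the deletion alone cannot be told apart from its effect after bleomycin. Mice are named by the numbers in their labels and values are always given in the order control 3, 21, 24 and 26, then WT bleomycin 4, 2, 5, 4-B2 and 7, then CB1R KO bleomycin 8, 9, 10 and 11. Control 26 and WT bleomycin 4-B2 and 7 have labels with capitals. All others, with all 4 CB1R KO libraries among them, have lower-case labels. Label style is thus uneven between the genotypes, and its meaning is not given.

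Branched-chain amino acids are broken down in a common beginning and separate ends. A transaminase removes the amino group, the branched-chain ketoacid dehydrogenase complex (BCKDH) commits the carbon skeleton to oxidation, and dedicated dehydrogenases, hydratases and carboxylases then lead leucine to acetyl-CoA and ketone bodies, and valine and isoleucine to propionyl-CoA and on to succinyl-CoA. Long-chain fatty acids enter mitochondria as carnitine esters and are shortened in repeated rounds by chain-length specific dehydrogenases, hydratases, hydroxyacyl-CoA dehydrogenases and thiolases. In the lung these pathways are active in mitochondria-rich cells, such as the surfactant-producing type II cells and the cardiac muscle cells that surround the pulmonary veins of the mouse.

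The libraries held between 14615904 and 16662580 estimated counts, except CB1R KO 11 with 53463884, a depth 3.33 times the median over the remaining 12. The smallest count of any of the 41 genes in any library was 113. For the genes of lowest counts counting error adds to the spread between libraries, and its share was not computed. Cnr1 itself was counted in all libraries, at 1.62 to 4.1 CPM (counts scaled to a fixed library total) in control, 3.46 to 6.97 in WT bleomycin and 2.47 to 5.63 in the libraries labelled CB1R KO. The tables do not say which part of Cnr1 was counted, so these values do not check the genotype, and the directions below rest on the labels. The tissue is lung by its markers, since the summed TPM (a unit scaled for transcript length and library total) of 10 type II cell genes lay between 20289 and 39188 in the 13 libraries.

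In control lungs the levels of the 41 genes, which can be compared between genes only in TPM, spanned a 50-fold range. Etfb, a subunit of the flavoprotein that takes electrons from the acyl-CoA dehydrogenases, was highest at 147 ± 10.2 TPM (SD, n = 4). Acaa2, the thiolase that ends each round of fatty acid oxidation, followed at 119.9 ± 12.4 TPM and Acadl, the long-chain dehydrogenase, at 106 ± 5.28 TPM, 2 neighbours whose means differ by little more than the larger SD. The lowest were Ehhadh at 6.74 ± 1.09 TPM, Ppm1k at 5.68 ± 0.581 TPM and Abat at 2.95 ± 0.819 TPM. The BCKDH subunits stood at unequal levels, with Bckdha at 48.2 ± 3.14 TPM, Dld at 46.1 ± 1.91, Bckdhb at 19.4 ± 3.23 and Dbt at 13.3 ± 1.22. Within groups the 41 genes varied little between mice, with a median coefficient of variation of 8.25% in control, 6.92% in WT bleomycin and 9.48% in CB1R KO bleomycin libraries.

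The comparison of WT bleomycin with control lungs asks how the oxidation genes differ in the fibrotic lung. By edgeR's quasi-likelihood test with an adjusted p under 0.05, 15 of the 41 genes fell, 4 rose and 22 were not called. The share called, 46.3%, lay near the 48.9% of all 15315 genes tested that were called in this comparison, so the number of called genes is not particular to the pathway. By direction the split was uneven: 36.6% of the 41 genes were called lower against 23.9% of all genes tested, and 9.76% were called higher against 25.0%. Of the 23 branched-chain and related genes 43.5% were called lower and 8.7% higher. Of the 18 fatty acid and ketone genes, electron transfer included, 27.8% were called lower, near the share of all genes, and 11.1% higher. The difference between these parts was not tested. The median log2 fold change was -0.15 over the 41 genes and -0.01 over all genes tested. No test of the list as a whole was made. With an unadjusted p under 0.05 were 24 of the 41, or 58.5%, against 55.2% of all genes tested, and in 18 of them, or 43.9%, the libraries of the groups did not overlap, against 40.3%. The largest falls were those of Aldh6a1 (log2 fold change -0.99), Ivd (-0.71), Ppm1k (-0.59), Acaa2 (-0.56), Hadh (-0.54) and Acadm (-0.53), and the 4 genes that rose were Oxct1 (0.37), Acads (0.28), Bcat2 (0.27) and Hsd17b10 (0.24). In bulk tissue such values cannot tell fewer cells of a type from less RNA per cell.

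**Figure D1:**
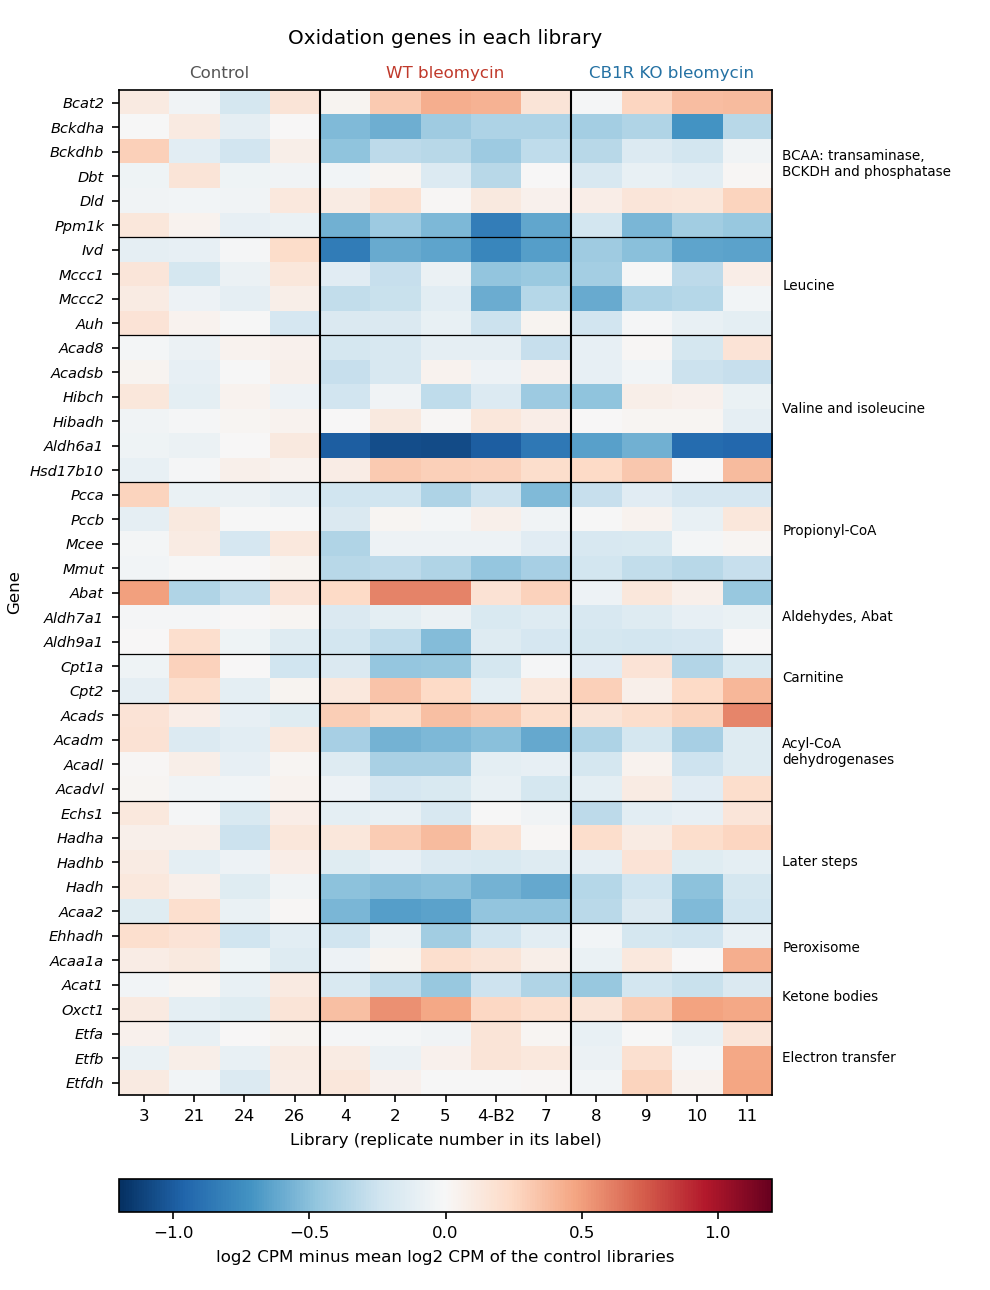
Heat map of the 41 genes (rows, grouped by role) in the 13 libraries (columns, with the number in each label), coloured by log2 CPM minus the mean log2 CPM of the 4 control libraries. The rows of Aldh6a1, Ivd, Ppm1k, Bckdha, Hadh and Acaa2 are blue in all 5 WT bleomycin libraries, while the rows of Etfa, Dld and Hibadh stay near white.

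The steps common to the 3 branched-chain amino acids moved in different directions. Bcat2, the mitochondrial transaminase of the first step, was at 31.4, 28.3, 25.2 and 32.5 CPM in control, 29.9, 36.3, 39.6, 39 and 32.6 CPM in WT bleomycin and 29, 34.9, 37.8 and 38.1 CPM in CB1R KO bleomycin libraries. WT bleomycin 4 lay inside the control range and WT bleomycin 7 only just above it. Bcat2 rose in WT bleomycin lungs by a log2 fold change of 0.27 (SE 0.11, adjusted p = 0.047), a call that 13 of 23 alternative analyses also made. Bckdha and Bckdhb encode the alpha and beta subunits of the decarboxylase of BCKDH, the committing step. Bckdha was at 58.5, 63.4, 54.4 and 58.8 CPM in control, 40.7, 39, 43.6, 45.5 and 45.3 CPM in WT bleomycin and 44.3, 45.8, 35.8 and 46.6 CPM in CB1R KO bleomycin libraries. All 9 bleomycin libraries lay below all control libraries. The fall was 0.46 on the log2 scale in WT bleomycin lungs (SE 0.08, adjusted p = 0.00035), and no alternative removed the call. Bckdhb was at 20.7, 15.6, 14.5 and 17.9 CPM in control, 12.2, 13.7, 13.5, 12.6 and 13.8 CPM in WT bleomycin and 13.5, 15.2, 14.6 and 16.5 CPM in CB1R KO bleomycin libraries. WT bleomycin libraries lay below the control range, but control 3 was far above controls 21 and 24. Bckdhb fell by 0.39 (SE 0.11, adjusted p = 0.0078), and by 0.20 with an adjusted p = 0.18 against controls 21 and 24 alone.

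The remaining parts of BCKDH were not called. Dbt, the transacylase core, was at 28.3, 32.6, 28.2 and 28.4 CPM in control, 28.6, 29.8, 26.2, 23.3 and 29.4 CPM in WT bleomycin and 25.6, 27.5, 26.8 and 29.7 CPM in CB1R KO bleomycin libraries. The 3 groups overlapped, with a log2 fold change of -0.10 between WT bleomycin and control (SE 0.08, adjusted p = 0.36). Dld, the dehydrogenase that BCKDH shares with the pyruvate and oxoglutarate complexes, had a log2 fold change of 0.09 (SE 0.06). Ppm1k encodes the mitochondrial phosphatase that removes the inhibiting phosphate from Bckdha. It was at 23.4, 22, 19.9 and 20.2 CPM in control, 14.3, 15.8, 14.7, 12 and 13.8 CPM in WT bleomycin and 18.3, 14.6, 16 and 15.6 CPM in CB1R KO bleomycin libraries. No bleomycin library reached the control range. Ppm1k fell by 0.59 on the log2 scale (SE 0.10, adjusted p = 0.00015) in WT bleomycin lungs. The opposing kinase Bckdk stands among the other pathway genes below and was not called.

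In the leucine branch, Ivd and Mccc2 fell and Mccc1 and Auh were not called. Ivd encodes isovaleryl-CoA dehydrogenase, the first step particular to leucine. It was at 89.2, 90.2, 95.3 and 112 CPM in control, 53.9, 63.4, 62.1, 56 and 60.8 CPM in WT bleomycin and 71.4, 67.8, 62.1 and 61.5 CPM in CB1R KO bleomycin libraries. For Ivd the lowest control library was above the highest bleomycin library by more than the whole range of either bleomycin group. Ivd fell to 0.61 times its control level in WT bleomycin lungs (log2 fold change -0.71, SE 0.08, adjusted p = 6.3e-06). Mccc1 and Mccc2 are the subunits of methylcrotonyl-CoA carboxylase, and their log2 fold changes were alike at -0.28 (SE 0.12, adjusted p = 0.069) and -0.32 (SE 0.11, adjusted p = 0.033), on either side of the threshold. The call of Mccc2 was made in 14 of the 23 alternatives, with values between -0.37 and -0.10. Auh, the methylglutaconyl-CoA hydratase, was at -0.14 (SE 0.08).

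The branch of valine and isoleucine held the largest fall of the 41 genes beside members that hardly differed. Aldh6a1 encodes methylmalonate semialdehyde dehydrogenase, the mitochondrial step that makes propionyl-CoA from valine. It was at 113, 112, 118 and 127 CPM in control, 59.3, 56.1, 55.8, 59.2 and 64.9 CPM in WT bleomycin and 74.5, 78.9, 61.9 and 61.1 CPM in CB1R KO bleomycin libraries. All bleomycin libraries lay far below all control libraries, and among the CB1R KO libraries 8 and 9 lay above the WT range and 10 and 11 within it. Aldh6a1 fell to 0.50 times its control level in WT bleomycin lungs (log2 fold change -0.99, SE 0.08, adjusted p = 4.3e-07), and the value stayed between -1.02 and -0.86 over the 23 alternatives. Hsd17b10 encodes an isoleucine dehydrogenase that is also a subunit of the mitochondrial RNase P. It was at 32.6, 34.4, 36.1 and 35.8 CPM in control, 37, 43.1, 42.2, 42.1 and 40.2 CPM in WT bleomycin and 40.9, 43.3, 34.7 and 45.2 CPM in CB1R KO bleomycin libraries. WT bleomycin libraries lay above the control range, 4 of 5 of them by a clear gap. Hsd17b10 rose by a log2 fold change of 0.24 (SE 0.08, adjusted p = 0.022). The valine dehydrogenase Acad8, the isoleucine dehydrogenase Acadsb and the valine enzymes Hibch and Hibadh were not called, with log2 fold changes from -0.23 (Hibch) to 0.07 (Hibadh).

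The propionyl-CoA branch takes up the products of valine and isoleucine. Mmut, the cobalamin-dependent methylmalonyl-CoA mutase that yields succinyl-CoA, was at 64.2, 65.4, 65.6 and 67 CPM in control, 51.9, 52.6, 50.9, 47.6 and 49.6 CPM in WT bleomycin and 56.4, 53.4, 51.9 and 54.1 CPM in CB1R KO bleomycin libraries. Its spread within groups was among the smallest of the 41 genes, and the bleomycin libraries did not reach the control range. Mmut fell by 0.38 on the log2 scale in WT bleomycin lungs (SE 0.05, adjusted p = 3.2e-05). The subunits of propionyl-CoA carboxylase differed from each other in their values: Pcca, which carries the biotin, fell from 32.5 ± 4.24 (SD, n = 4) to 25.8 ± 2.16 CPM (SD, n = 5; log2 fold change -0.33, SE 0.09), while Pccb was at 60.1 ± 3.88 and 58.8 ± 3.55 CPM (log2 fold change -0.03, SE 0.07). Mcee, the epimerase between carboxylase and mutase, was at -0.14 (SE 0.10). The difference between Pcca and Pccb was not tested.

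Abat, the mitochondrial transaminase of the transmitter GABA that also acts on a valine product, had the lowest TPM of the 41 genes in control lungs and a wide spread between mice. It was at 12.4, 6.85, 7.24 and 9.86 CPM in control, 10.4, 13.3, 13.3, 9.97 and 10.7 CPM in WT bleomycin and 8.44, 9.71, 9.19 and 6.44 CPM in CB1R KO bleomycin libraries. Control 3 lay within the WT bleomycin range. The log2 fold change between WT bleomycin and control was 0.34 (SE 0.18, adjusted p = 0.14), and without control 3 it was 0.53 with an adjusted p = 0.023. Aldh9a1, which makes the precursor of carnitine, fell by 0.28 (SE 0.09, adjusted p = 0.016), and Aldh7a1, a lysine-pathway dehydrogenase, fell by 0.14 (SE 0.05, adjusted p = 0.027), a call made in 13 of the 23 alternatives, with values between -0.15 and -0.03.

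**Figure D2:**
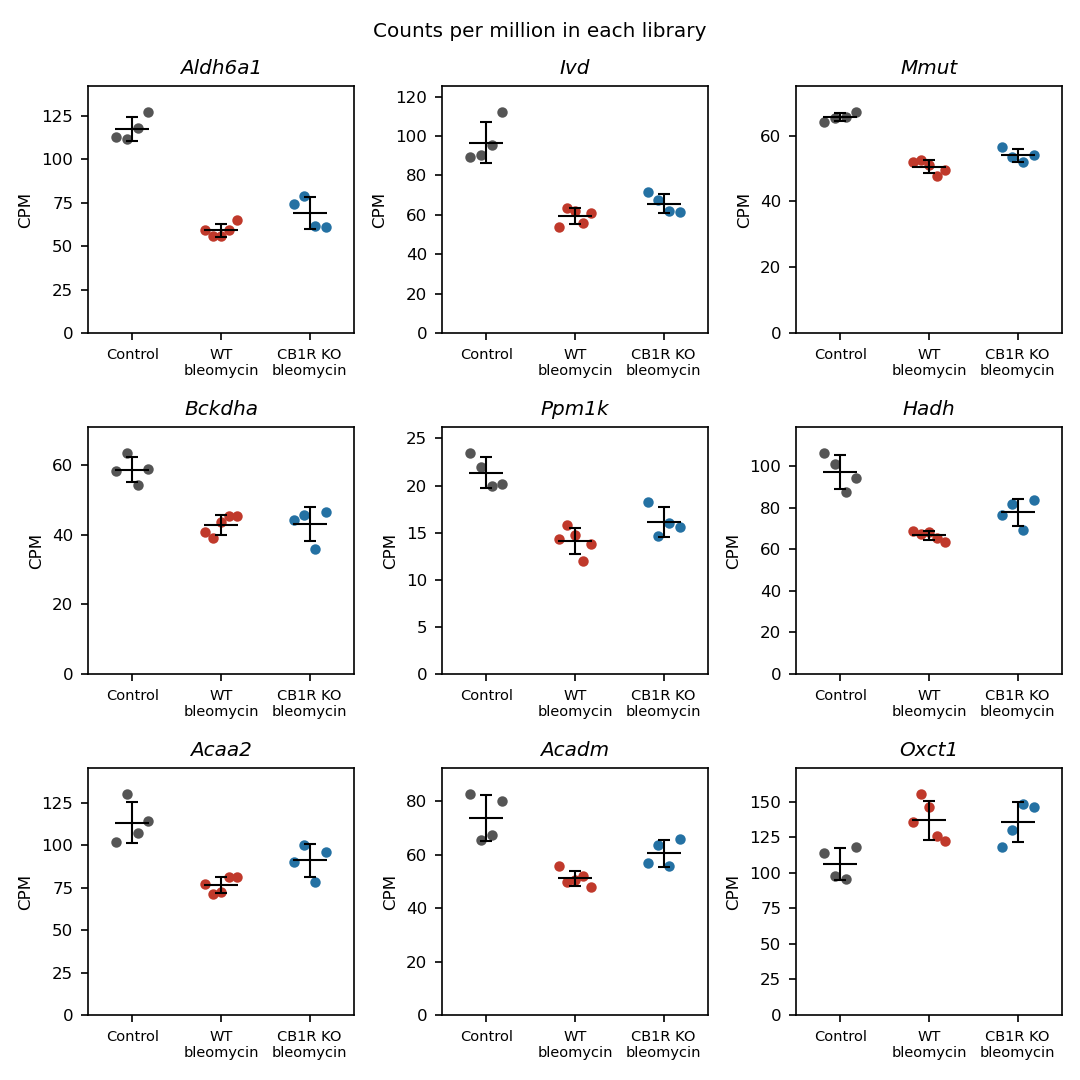
CPM in each library (points) for 9 of the 41 genes, with the mean (bar) and SD (whiskers) of each group, axes starting at 0. In the panels of Aldh6a1, Ivd, Mmut, Bckdha, Ppm1k, Hadh and Acaa2 every bleomycin library of either genotype lies below every control library, and in the panel of Oxct1 the WT bleomycin libraries lie above.

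Entry of fatty acids into mitochondria gave no call. Cpt1a, the carnitine palmitoyltransferase that limits entry, was at 196, 246, 203 and 172 CPM in control, 180.2, 147, 148, 175 and 201 CPM in WT bleomycin and 184, 227, 159 and 178 CPM in CB1R KO bleomycin libraries. The 3 groups overlapped, and controls alone ranged from 172 to 246. Its log2 fold change was -0.26 (SE 0.12, adjusted p = 0.089), and it passed the threshold without WT bleomycin 7 (-0.32), without control 26 (-0.34), against controls 21 and 24 alone (-0.40) and among libraries of lower-case labels (-0.44, adjusted p = 0.024). Cpt2, its partner on the inner membrane, was at 0.15 (SE 0.10).

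Of the dehydrogenases of fatty acid oxidation, Acadm and Acadl fell, Acads rose and Acadvl was not called. Acadm, the medium-chain enzyme, was at 82.6, 65.4, 67.4 and 80 CPM in control, 55.7, 49.7, 50.4, 51.9 and 48.1 CPM in WT bleomycin and 56.8, 63.5, 55.7 and 66.1 CPM in CB1R KO bleomycin libraries. Controls 3 and 26 stood above controls 21 and 24, and all 4 were above the WT bleomycin libraries. Acadm fell by 0.53 on the log2 scale in WT bleomycin lungs (SE 0.08, adjusted p = 0.0001). Acads, the short-chain enzyme, was at 24.7, 23.3, 20.6 and 20 CPM in control, 27, 25.7, 28.4, 27.5 and 25.6 CPM in WT bleomycin and 24.5, 25.6, 26.6 and 33.2 CPM in CB1R KO bleomycin libraries. The control and WT bleomycin ranges were apart, by little. Acads rose by 0.28 (SE 0.10, adjusted p = 0.027). Acadl, the long-chain enzyme, fell by 0.22 (SE 0.08, adjusted p = 0.031), a call made in 14 of the 23 alternatives, and the very-long-chain enzyme Acadvl was at -0.15 (SE 0.07, adjusted p = 0.098).

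Of the later steps, Hadh and Acaa2 fell and the others were not called. Hadh encodes the soluble hydroxyacyl-CoA dehydrogenase for medium and short chains. It was at 106, 101, 87.5 and 94.1 CPM in control, 68.7, 67.5, 68.3, 65.4 and 63.4 CPM in WT bleomycin and 76.5, 81.9, 69.1 and 83.5 CPM in CB1R KO bleomycin libraries. The WT bleomycin libraries were close together and all CB1R KO libraries lay between them and the controls. Hadh fell by 0.54 on the log2 scale in WT bleomycin lungs (SE 0.07, adjusted p = 1.8e-05). Acaa2 was at 102, 129.8, 107 and 114 CPM in control, 77.2, 71.1, 72.4, 81.3 and 81.4 CPM in WT bleomycin and 90.1, 99.9, 78 and 95.8 CPM in CB1R KO bleomycin libraries. Again no bleomycin library reached the control range, and CB1R KO 10 lay within the WT range. Acaa2 fell by 0.56 (SE 0.08, adjusted p = 8.3e-05). Hadha and Hadhb form the trifunctional protein of the inner membrane, which handles long chains. Hadha was at 58, 57.9, 46.5 and 61 CPM in control, 61.1, 68.7, 72.4, 63 and 56.2 CPM in WT bleomycin and 64.5, 59.3, 64.1 and 66.4 CPM in CB1R KO bleomycin libraries. The ranges overlapped, with a log2 fold change of 0.20 (SE 0.09, adjusted p = 0.068). Without WT bleomycin 7 that value was 0.25 and passed the threshold, as it did against controls 21 and 24 alone (0.30) and among libraries of lower-case labels (0.32, adjusted p = 0.025). Hadhb was at -0.15 (SE 0.07, adjusted p = 0.078), opposite in sign to its partner, and the crotonase Echs1 at -0.09 (SE 0.09).

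The ketone body enzymes moved in opposite directions. Acat1, the acetoacetyl-CoA thiolase that also ends isoleucine breakdown, was at 87.7, 91.1, 84.3 and 96.9 CPM in control, 79.1, 72.8, 65.5, 75.9 and 70.1 CPM in WT bleomycin and 65.5, 77.1, 74.5 and 79.9 CPM in CB1R KO bleomycin libraries. Bleomycin libraries of both genotypes lay below the control range. Acat1 fell by 0.31 in WT bleomycin lungs (SE 0.07, adjusted p = 0.0025). Oxct1, which activates acetoacetate so that ketone bodies can be burnt, was at 114, 97.9, 95.6 and 118 CPM in control, 136, 155, 146, 126 and 122 CPM in WT bleomycin and 118, 130.0, 148 and 146 CPM in CB1R KO bleomycin libraries. All WT bleomycin libraries lay above the controls. Oxct1 rose by 0.37 (SE 0.09, adjusted p = 0.0051), the largest rise of the 41 genes and the one rise that no alternative removed. The peroxisomal enzymes Ehhadh (-0.23, SE 0.11) and Acaa1a (0.08, SE 0.10) were not called. Acaa1a has a near-identical copy, Acaa1b, so the split of reads between them is uncertain.

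The electron transfer genes gave no call and the smallest values of any role. Etfa (0.02, SE 0.06), Etfb (0.07, SE 0.10) and Etfdh (0.04, SE 0.10), the last being the oxidoreductase that passes the electrons to ubiquinone, all had adjusted p of 0.55 or more. They serve the dehydrogenases of both pathways, Acadm and Ivd among them.

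Promoter sequences of the genes were taken from a RefSeq table on GRCm38.p6, another build than the GRCm39 transcripts behind the counts, and matched by symbol, with no coordinates joined. The table held windows of 250 bases before to 50 after the start for 35 of the 41 genes, all but Dbt, Mmut, Acaa2, Acat1, Abat and Aldh7a1. Shown are the 250 bases before the start of 3 genes that fell and lie in different branches, Aldh6a1, Ivd and Acadm, and of Oxct1, which rose. Lower case is the gene's strand from 5′ to 3′, and capitals mark the CCAAT box (CCAAT, or ATTGG where it lies on the opposite strand) and the core of sites for the factor NRF1 (GCGCATGC, or GCATGCGC on the opposite strand).
Aldh6a1: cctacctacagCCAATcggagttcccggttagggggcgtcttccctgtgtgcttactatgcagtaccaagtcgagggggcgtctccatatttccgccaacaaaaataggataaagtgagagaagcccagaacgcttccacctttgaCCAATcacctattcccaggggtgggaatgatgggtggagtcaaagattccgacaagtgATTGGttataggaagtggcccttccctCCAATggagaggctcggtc
Ivd: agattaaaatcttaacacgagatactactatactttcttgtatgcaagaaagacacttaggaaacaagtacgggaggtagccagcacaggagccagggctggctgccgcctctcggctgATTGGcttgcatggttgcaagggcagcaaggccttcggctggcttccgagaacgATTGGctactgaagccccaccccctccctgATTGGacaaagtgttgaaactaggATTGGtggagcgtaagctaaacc
Acadm: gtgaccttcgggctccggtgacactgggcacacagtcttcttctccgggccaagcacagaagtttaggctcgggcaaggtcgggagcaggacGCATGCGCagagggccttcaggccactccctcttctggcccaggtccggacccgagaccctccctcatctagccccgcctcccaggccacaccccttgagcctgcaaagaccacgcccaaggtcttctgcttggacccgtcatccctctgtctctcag
Oxct1: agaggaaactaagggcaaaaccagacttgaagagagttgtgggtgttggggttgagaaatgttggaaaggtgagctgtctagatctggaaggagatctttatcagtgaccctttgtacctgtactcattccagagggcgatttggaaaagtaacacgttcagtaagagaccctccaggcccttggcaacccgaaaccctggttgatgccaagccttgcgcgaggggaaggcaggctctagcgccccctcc
These lie at chr12:84451025-84451274 (minus strand), chr2:118861744-118861993 (plus strand), chr3:153944644-153944893 (minus strand) and chr15:4026178-4026427 (plus strand). Aldh6a1 and Ivd each held 4 CCAAT boxes, Acadm held none but 1 NRF1 core, and Oxct1 held neither. These windows are examples and do not stand for the genes that fell or rose. Bckdha, which fell, held neither motif, and Hsd17b10, which rose, held a CCAAT box. Where a gene had more than 1 window, as Aldh6a1 had, the first listed was used.

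Over the 35 windows, 20 held a CCAAT box on either strand, 57.1% against 37.9% of 27025 windows in the table, 1 per gene. An NRF1 core lay in 4 of them, those of Pccb, Acadm, Etfa and Etfdh, 11.4% against 2.8%. The element of the estrogen-related receptors, TCAAGGTCA, was in none of the 35 and in 0.407% of all windows. AGGTCA repeated on 1 strand with any 1 base between, the repeat bound by PPAR and RXR, was in none of the 35 and in 0.0444% of all. These are matches of letters in windows that were not matched for base composition, and no test was made.

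The comparison of CB1R KO bleomycin with WT bleomycin lungs asks whether the deletion alters these genes in the fibrotic lung. By edgeR's quasi-likelihood test 0 of the 41 genes were called, where 0.979% of all genes tested were, 0.620% lower and 0.359% higher. DESeq2 on all libraries and on the 2 groups, and limma on log2 TPM, also called 0. The shares of all genes called were 4.1% and 4.15% in DESeq2. In limma they were 0.712% on log2(TPM + 1) and 0.607% on log2(TPM + 0.1). With an unadjusted p under 0.05 were 6 of the 41, or 14.6%, near the 17.0% of all genes tested. Those 6 were Hadh, Acadm, Acaa2, Aldh6a1 and Acadvl with higher values in the CB1R KO libraries and Abat with a lower one. The median log2 fold change was 0.07 over the 41 genes and 0.00 over all genes tested, and 33 of 41 values (80.5%) were above 0 against 50.1% of all genes. By library, the median over the 41 genes of log2 CPM minus the control mean was -0.17, -0.11, -0.12, -0.15 and -0.13 in WT bleomycin libraries. In CB1R KO bleomycin libraries it was -0.19, -0.01, -0.13 and -0.05, so the groups overlapped. CB1R KO 8 lay below all WT bleomycin libraries and CB1R KO 10 within their range. The same WT libraries enter this comparison and the one with control.

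Hadh had the smallest p, with a log2 fold change of 0.22 (SE 0.07, adjusted p = 0.13) and all 4 CB1R KO libraries above all 5 WT libraries in the values given above. Acadm was at 0.24 (SE 0.08, adjusted p = 0.15), also without overlap, although WT bleomycin 4 and CB1R KO 10 both round to 55.7 CPM. Groups that did not overlap were found for 3 of the 41 genes (7.32%), Hadh, Acadm and Abat, against 5.60% of all genes tested. Acaa2 was at 0.25 (SE 0.08, adjusted p = 0.16), and Aldh6a1 at 0.22 (SE 0.08, adjusted p = 0.18). For both, CB1R KO 10 lay inside the WT bleomycin range, and for Aldh6a1 CB1R KO 11 did too. Without CB1R KO 10, 2 of the 41 genes passed the threshold, Hadh (log2 fold change 0.28, adjusted p = 0.035) and Acaa2 (0.32, adjusted p = 0.045). That fit called 4.24% of all genes tested, against 0.979% with all libraries. Without any other single library, 0 passed, and those fits called 0.00648% to 1.51% of all genes tested. CB1R KO 10 also had the lowest sums of its group in type II cell markers, 25240 TPM, type I, 3660, endothelial, 1883, and fibroblast markers, 2743. Its sums of monocyte-derived and alveolar macrophage markers, 3047 and 1502 TPM, were the highest of its group. In CB1R KO against WT bleomycin lungs, 3 of 10 type II cell markers were called higher, as was 1 of 10 endothelial and 1 of 10 fibroblast markers. The part of these cell types in the values of Hadh and Acaa2 was not tested. Cardiac muscle markers were higher as well, with summed TPM of 482 to 849.6 in CB1R KO and 138 to 479 in WT bleomycin libraries, and 1 of 10 was called. With the mean log2 CPM of these markers as a term, chosen after the data were seen, edgeR called 0 of the 41 genes. In that fit 4 of the 41 had an unadjusted p under 0.05, and 0% of all genes tested were called. Abat was at -0.46 (SE 0.18, adjusted p = 0.22), with 6.44 to 9.71 CPM in the CB1R KO and 9.97 to 13.3 CPM in the WT bleomycin libraries.

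Several genes called in WT bleomycin lungs had values near 0 between the genotypes. Bckdha was at 0.01 (SE 0.08), Acat1 at 0.03 (SE 0.07) and Mccc2 at 0.00 (SE 0.11) in CB1R KO against WT bleomycin lungs. Of the 4 genes that rose with bleomycin, Oxct1 was at -0.01 (SE 0.09), Hsd17b10 at 0.01 (SE 0.08), Acads at 0.04 (SE 0.09) and Bcat2 at -0.02 (SE 0.11). The standard errors over the 41 genes ran from 0.05 to 0.18, with a median of 0.08, so a difference of the size of these errors was not detectable with 4 and 5 mice.

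**Figure D3:**
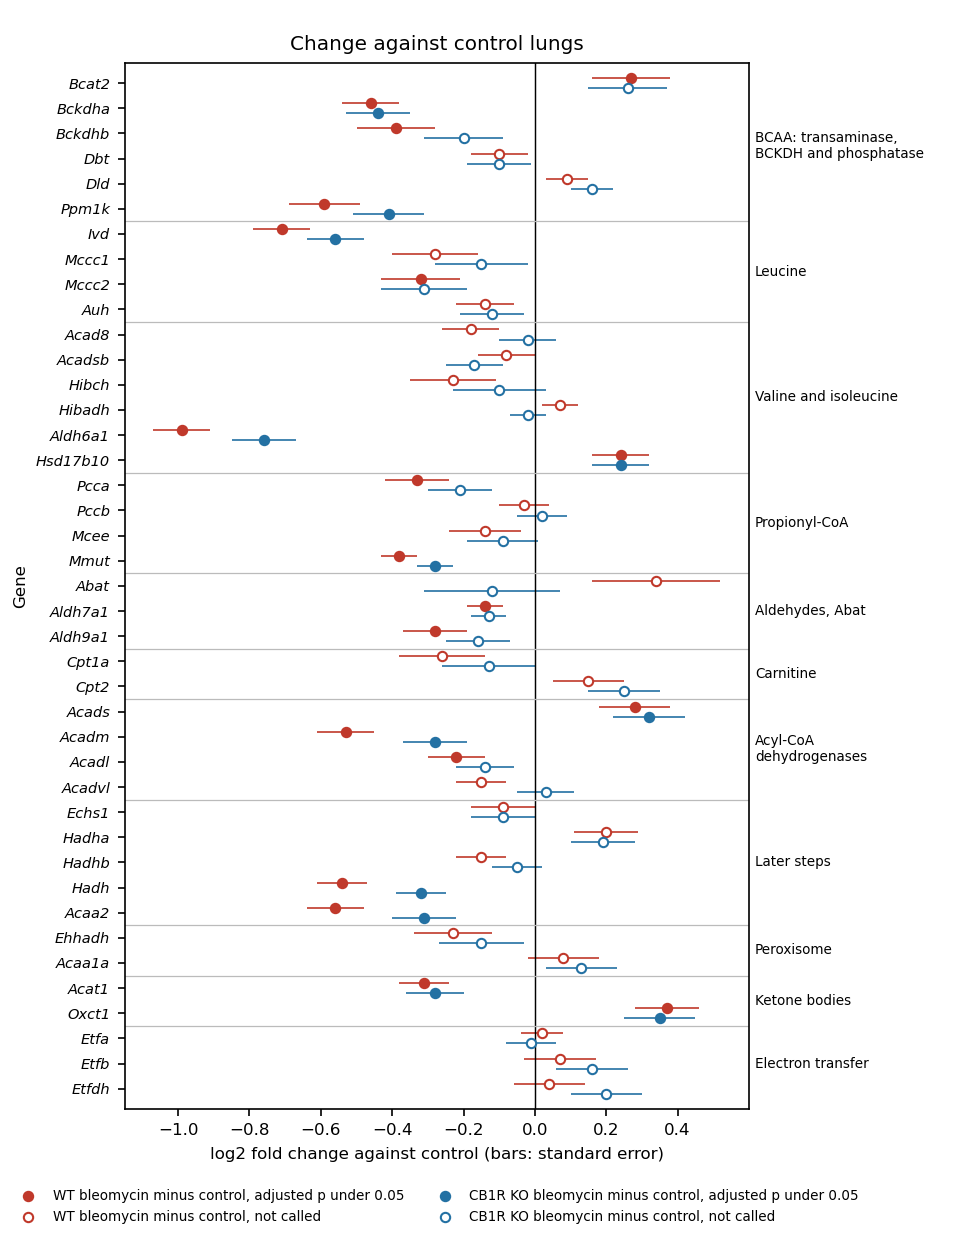
Log2 fold change against control (points) with its standard error (bars) for WT bleomycin (red) and CB1R KO bleomycin lungs (blue) in the 41 genes, filled where the adjusted p was under 0.05. Both series share the control libraries. Aldh6a1 is farthest to the left in both, at -0.99 and -0.76, and Oxct1 is farthest to the right, at 0.37 and 0.35.

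Against the same control libraries, CB1R KO bleomycin lungs had 9 genes that fell and 3 that rose. These are 22% and 7.32% of the 41, against 16.3% and 19.0% of all genes tested. The called share was 29.3% in either direction against 35.4%, the unadjusted p was under 0.05 in 43.9% against 45.5%, the libraries did not overlap in 24.4% against 33.5%, and the median log2 fold change was -0.12 against -0.01. The 9 were Aldh6a1 (-0.76, SE 0.09, adjusted p = 1.8e-05), Ivd (-0.56, SE 0.08, adjusted p = 0.00017), Bckdha (-0.44, SE 0.09), Ppm1k (-0.41, SE 0.10), Hadh (-0.32, SE 0.07), Acaa2 (-0.31, SE 0.09), Mmut (-0.28, SE 0.05), Acadm (-0.28, SE 0.09) and Acat1 (-0.28, SE 0.08). The 3 that rose were Oxct1 (0.35, SE 0.10, adjusted p = 0.013), Acads (0.32, SE 0.10) and Hsd17b10 (0.24, SE 0.08). The 7 genes called in WT bleomycin lungs and not here were Bckdhb (-0.20, SE 0.11, adjusted p = 0.18), Pcca (-0.21, SE 0.09, adjusted p = 0.086), Mccc2 (-0.31, adjusted p = 0.055), Aldh7a1 (-0.13, adjusted p = 0.058), Aldh9a1 (-0.16, adjusted p = 0.20), Acadl (-0.14, adjusted p = 0.21) and Bcat2 (0.26, adjusted p = 0.09). In limma on log2 TPM the counts were 5 lower and 6 higher with a median of -0.04, while the median of all genes went from -0.01 to 0.07 with a pseudocount of 1 and 0.08 with 0.1, so the split of calls by direction depended on the unit and test.

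Markers of several cell types differed between the groups, and those of others differed little or in both directions. All 10 cardiac muscle markers fell in WT bleomycin lungs, and their summed TPM was 654 to 1709 in control, 138 to 479 in WT bleomycin and 482 to 849.6 in CB1R KO bleomycin libraries. Controls 3 and 26 had the highest sums, 1093 and 1709, against 654 and 753 in controls 21 and 24, and they stood apart in adipocyte markers, 271 and 257 against 89.4 and 72.1, and in neutrophil markers, 1682 and 1393 with both others under 409, the highest WT bleomycin sum. In 14 of the 41 genes, Acadm, Bckdhb and Oxct1 among them, both of these controls were above the other 2, in 1 both were below, and in 26 the order was mixed. Type II cell markers fell for 6 of 10 and rose for 1, with sums of 32930 to 38451, 20289 to 24112 and 25240 to 39188. Club cell markers fell for 5 of 6, with sums of 87761 to 101829, 41805 to 62336 and 39443 to 50057, and endothelial markers fell for 9 of 10, with sums of 2467 to 2986, 1802 to 1975 and 1883 to 2346. All 10 markers of monocyte-derived macrophages rose, from sums of 382 to 464 to sums of 2969 to 3386 in WT bleomycin and 2000 to 3047 in CB1R KO bleomycin libraries. Neutrophil markers fell for 4 of 6, with sums of 307 to 1682, 206 to 409 and 243 to 533. Adipocyte markers fell for 4 of the 7 tested, with sums of 72.1 to 271, 25.7 to 153 and 65.1 to 277. Fibroblast markers fell for 3 and rose for 5 of 10, type I cell markers fell for 3 and rose for 1 of 8. Lymphocyte markers fell for 5 and rose for 1 of 9. Alveolar macrophage markers fell for 4 of 9, with overlapping sums of 955 to 2297, 904 to 1408 and 890.4 to 1502. Of 7 ciliated cell markers 0 were called in WT bleomycin lungs. No marker of these lists was at 0 in all libraries of a group. The part of these cell types in the values of the 41 genes was not tested.

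For cardiac muscle, analyses chosen after the data were seen were added. They cannot tell cardiac muscle apart from the group. The sums of controls 21 and 24, 654 and 753 TPM, also lay above all WT bleomycin sums, 138 to 479 TPM. With the mean log2 CPM of the 10 cardiac markers as a term, whose summed TPM did not overlap between control and WT bleomycin, 8 of the 41 genes were called lower and 1 higher in WT bleomycin lungs, while the share of all genes called went to 14.1%. Against controls 21 and 24 alone, which were also those with the lowest adipocyte and neutrophil sums, 11 were called lower and 4 higher, with 37.3% of all genes called. Of these 15, 12 had been called with all controls, and Cpt1a (lower), Hadha and Abat (higher) had not. Called in the main analysis and in each of the 23 alternatives, these included, were 7 genes that fell, Aldh6a1, Ivd, Mmut, Bckdha, Ppm1k, Hadh and Acaa2, and 1 that rose, Oxct1. The share of all genes tested that were called in every one of these analyses is not given here, so this count cannot be set against it. With the cardiac term 10 calls were lost, those of Acadm (-0.29, adjusted p = 0.16), Acat1 (-0.19, adjusted p = 0.35), Bckdhb, Pcca, Mccc2, Aldh7a1, Acadl, Hsd17b10, Acads and Bcat2, the last with a larger value (0.36, adjusted p = 0.27).

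**Figure D4:**
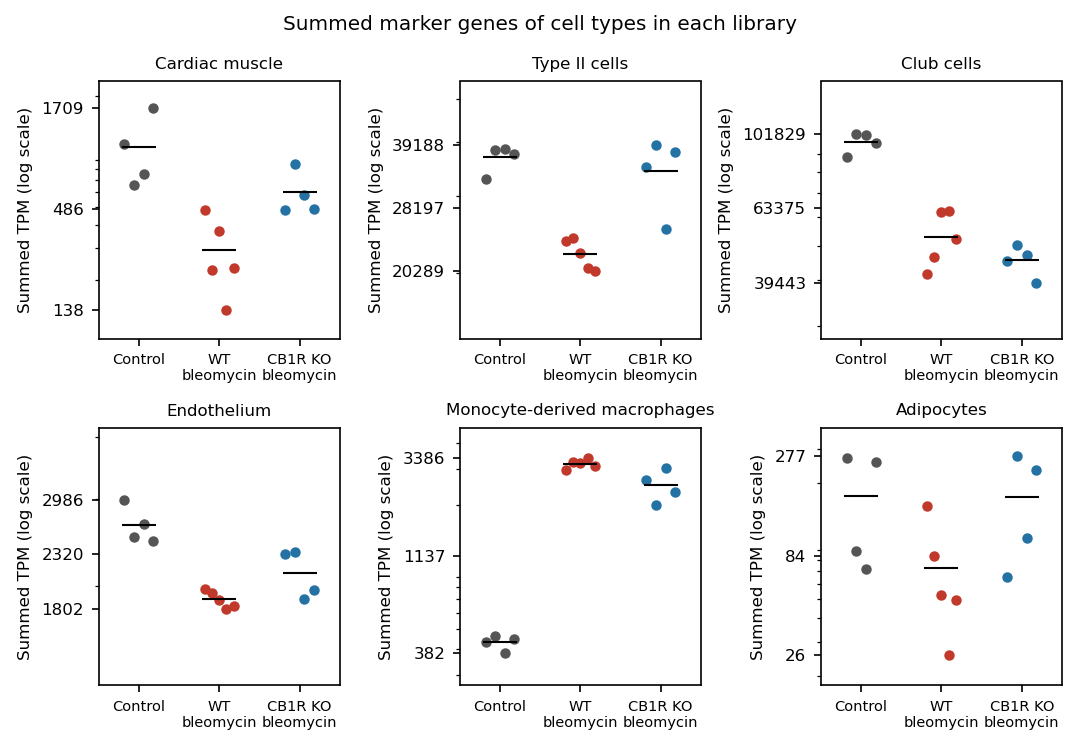
Summed TPM of the marker genes of 6 cell types in each library (points) with the group mean (bar), on log axes. The sums of cardiac muscle, type II, club and endothelial markers of the 5 WT bleomycin libraries lie below all controls, those of monocyte-derived macrophages lie above, and adipocyte sums overlap.

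Other genes of the pathways were described from lists outside the 41. Of 12 tested genes of branched-chain breakdown, 4 fell and 2 rose in WT bleomycin lungs, with a median log2 fold change of -0.10. For this and the lists below, 23.9% of all genes tested were called lower and 25.0% higher. Aldh2, the mitochondrial aldehyde dehydrogenase, fell from 998 ± 86.8 (SD, n = 4) to 556 ± 55.3 CPM (SD, n = 5; log2 fold change -0.84, SE 0.08), and Aldh3a2, a fatty aldehyde dehydrogenase, from 145 ± 9.46 to 111 ± 2.67 CPM (-0.38, SE 0.07). Bcat1, the cytosolic transaminase, rose from 0.369 ± 0.177 to 2.16 ± 0.76 CPM (2.52, SE 0.53, adjusted p = 0.0012), and was at 1.09 ± 0.922 CPM (SD, n = 4) in CB1R KO bleomycin lungs. Bckdk, the kinase opposed to Ppm1k, was at 48.2 ± 2.77 CPM in control and 46.5 ± 2.76 CPM in WT bleomycin lungs (log2 fold change -0.05, SE 0.06, adjusted p = 0.51).

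Among 29 other genes of fatty acid oxidation, 8 fell (27.6%) and 7 rose (24.1%), near those shares of all genes, with a median of 0.01. Acaa1b fell from 8.95 ± 0.894 to 1.98 ± 0.262 CPM (log2 fold change -2.18, SE 0.27), with the doubt about reads shared with Acaa1a. Cpt1c, a carnitine acyltransferase relative known mainly from neurons, rose from 8.12 ± 0.701 to 15.6 ± 2.18 CPM (0.94, SE 0.11).

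Of 15 tested regulators of these pathways, 7 fell and 3 rose, with a median of -0.21. Klf15, a transcription factor that induces branched-chain breakdown in muscle, fell from 81.8 ± 40.8 to 20.7 ± 7.02 CPM (log2 fold change -1.98, SE 0.34, adjusted p = 0.00028), with a wide spread among controls. Ppara, the receptor that induces fatty acid oxidation, fell from 3.98 ± 0.796 to 1.85 ± 0.392 CPM (-1.10, SE 0.23) and was at 3.18 ± 0.919 CPM (SD, n = 4) in CB1R KO bleomycin lungs, 0.76 above WT bleomycin on the log2 scale with an adjusted p = 0.13. Its relative Ppard rose by 0.37 (SE 0.06). Of 17 genes of the citric acid cycle 4 fell and 2 rose (median -0.03), among them the succinate dehydrogenase subunits Sdha, which fell by 0.22 (SE 0.05), and Sdhd, which rose by 0.36 (SE 0.07), and the succinyl-CoA ligase subunit Suclg2, which fell by 0.24 (SE 0.07). Of 14 genes of mitochondrial structure and DNA upkeep 1 fell and 7 rose (median 0.17), with rises of Timm23 (0.66, SE 0.08) and Vdac2 (0.30, SE 0.06), a translocase of the inner membrane and a channel of the outer, and a fall of the mitochondrial DNA polymerase Polg (-0.59, SE 0.11). Between CB1R KO and WT bleomycin lungs edgeR called 0 genes of these 5 lists, with an unadjusted p under 0.05 for 1, 6, 3, 3 and 3 of them in the order above, shares of 8.33% to 21.4% around the 17.0% of all genes tested.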

How the data were processed

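RNA of 13 lung libraries (taken as 1 per mouse, in 3 labelled groups) had been prepared with oligo(dT) selection and sequenced from both ends. The authors quantified reads with Kallisto on GRCm39 transcripts per the labels and summed over protein-coding transcripts of each gene, and deposited estimated counts, of which 70.5% were not whole, and TPM values, which sum to 821762.7 to 854358.4 per library. The TPM table had 1 column of no sample, which was not used here.

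Estimated counts were rounded and tested in edgeR 4.0.16 (R 4.3.3), with its expression filter, TMM scaling, quasi-likelihood tests over all 3 groups and Benjamini-Hochberg adjustment over 15315 genes. A gene was called at an adjusted p under 0.05. CPM used TMM library sizes. The p-values measure spread between libraries, taken as 1 per mouse. Scripts were tested on simulated data. Alternatives were DESeq2 1.42.0, limma 3.58.1 on log2(TPM + 1) and log2(TPM + 0.1), other scaling and filters, 2-group fits, a thinned CB1R KO 11, label style, and leaving out each library.

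Values were given by library for 10 genes of fixed role and for those with the smallest p, 5 per direction among called genes with bleomycin and 5 between genotypes. From each list of other genes the 3 called genes with the smallest p were named, except 1 that is not reported here, and Bckdk was added after its value was seen. The members and lists were chosen with earlier results of these data known. Promoter windows came from RefSeq on GRCm38.p6.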

Additional observations from a re-analysis of the deposited data

Results flagged for a closer look

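Of 54 groups of values checked (18 genes described library by library in 3 groups), 1 held a library far from the others. For Dbt, the gap between control 21, at 32.6 CPM, and the nearest other control library was 0.96 of the range of the group, where the other 3 controls lay between 28.2 and 28.4 CPM. Chance takes about 1 in 20 groups past the lower limit used for this check.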

How the results depend on the processing

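No paired analysis was possible because the groups share no replicate numbers. Of 1206 recomputed values of single genes, 1129 kept their side of the threshold, 63 were no longer called, 14 became called and 0 called values changed sign. The 1206 include values not called in the main analysis, those of all 18 genes between genotypes among them, which could not lose a call. In WT bleomycin against control, the number of genes called lower (15) was 8 with the cardiac marker score as a term, and 13 to 15 when each control or WT library was left out (16 without CB1R KO 9 or 11, which share the estimate of spread). The number called higher (4) was 1 with that score, 2 with libraries of lower-case labels only, and 2 to 5 when each control or WT library was left out, with 2 without WT bleomycin 5 and without control 24. Shares of all genes called were 48.9% in the main analysis, 14.1% with that score and 37.2% with lower-case labels only. They were 43.2% to 46.9% when each control or WT library was left out. Between genotypes, 0 genes called higher became 2 without CB1R KO 10 and the range over left-out libraries was 0 to 2, while 0 were called lower throughout. Without CB1R KO 10 the share of all genes called went from 0.979% to 4.24%. In CB1R KO bleomycin against control, the number called higher (3) was 1 in DESeq2 and in edgeR on 2 groups, 1 with the cardiac score, 1 against the 2 controls with the least cardiac muscle, 6 in limma with either pseudocount, and 1 to 6 when each control or CB1R KO library was left out, with 1 without CB1R KO 11 and 6 without CB1R KO 8. Shares of all genes called were 35.4% in the main analysis, 23.5% with that score, 24.3% against those controls and 33.1% to 33.2% in limma. They were 27.7% to 34.6% when each control or CB1R KO library was left out. The number called lower (9) was 5 in limma with either pseudocount, and the median (-0.12) was -0.04 in limma with either pseudocount and -0.04 against those 2 controls. In limma the median of all genes moved as well, from -0.01 to 0.07 and 0.08, while against those controls it was 0.00. The cause of the other changes was not tested. Both cardiac alternatives were chosen after the data were seen. Other counts and medians stayed within 1.5 times the main count or within the spread between libraries. With 4 or 5 mice per group, differences near the standard errors were not detectable.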
